A study of Drosophila melanogaster with 4 samples.

Results

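Homeodomain transcription factors were examined in RNA from tagged nuclei of adult Drosophila melanogaster heads. The set held 50 genes, listed by name as homeodomain factors of neuronal identity, out of 17137 genes in the deposited count table, and all 50 were found there by symbol. pros and repo, which also carry homeobox-type domains, were left out of the set by its definition. The tag, under UAS control, was a GFP fusion of UNC84, a protein of the nuclear envelope, and nuclei were purified by INTACT, which pulls down nuclei that carry such a tag. It was driven by split-Gal4, in which a pair of promoters each supplies part of the Gal4 activator, so that only cells using both promoters should be tagged. The VAChT:VGlut group combined the promoters of the vesicular transporters for acetylcholine (VAChT) and glutamate (VGlut), and the VAChT:VGAT group paired VAChT with the transporter for GABA (VGAT). Both groups carried the UAS-UNC84 tag, received no treatment and were aged 10 days, and each had 2 libraries. The libraries were made from bulk frozen heads, and whether those of a group came from separate collections of flies is not given, so the tests below measure differences against a spread that may be technical.

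Homeodomain proteins bind DNA through a helix-turn-helix domain and act as selector genes: combinations of them set which body segment, eye region or neuron type a cell becomes, and many stay on in the adult neuron to maintain its transmitter, receptors and wiring. The families differ in what accompanies the homeodomain, such as a paired box (PAX), LIM domains, a POU domain, CUT domains or zinc fingers. In the fly head they are known for dividing the optic lobe progenitors into domains, for specifying photoreceptors, and for the segmental identity of the gnathal ganglia, where the Hox genes act.

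The libraries held 1490390 to 2556988 counts. The label of neuronal nuclei was checked against markers, and all 8 neuron markers examined (elav, nSyb, brp, Syt1, Syn, Rdl, para and Appl) were well above 0, with a summed level of 14452 to 14780 counts per 1000000 (CPM) in VAChT:VGlut and 12035 to 12046 in VAChT:VGAT. Markers of other cells were abundant as well. The summed level of 15 photoreceptor markers was 33608 to 33887 CPM in VAChT:VGlut and 27828 to 27986 in VAChT:VGAT, and that of 7 fat body markers was 27195 to 27809 and 33659 to 33705. The 10 glial markers summed to 2318 to 2401 CPM and 2938 to 2971, and the 8 muscle markers to 1111 to 1147 and 798 to 814. No marker on these lists was at 0 in every library. A difference in RNA between such bulk samples cannot distinguish a change in the number of cells of a type from a change in RNA per cell.

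The levels of the homeodomain genes were low and unequal. Together they took 0.303% and 0.294% of all counts in VAChT:VGlut and 0.281% and 0.282% in VAChT:VGAT, or 4201 to 7504 counts a library. Between 47 and 50 of them had at least 1 count in a library. hth alone held 23.8% to 25.5% of these counts, and the 5 most counted genes of each library held 56.4% to 56.9%. Per kilobase of exon, the median of the members tested was 9.46 CPM, against 17.1 over all 8246 genes tested, and 11 of 38 members lay above the latter.

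Levels per kilobase of exon gave the following order. hth (homothorax), the TALE-class partner that carries the Hox cofactor exd into the nucleus, was first, with a mean ± SD (n = 2) of 62.8 ± 1.55 CPM per kb in VAChT:VGlut and 58.6 ± 0.15 in VAChT:VGAT. onecut, the fly member of the ONECUT family and a neuronal factor, was next with 51.4 ± 3.40 and 52.6 ± 1.33 CPM per kb. These 2 genes were separated from each other and from the rest in every library. Below them, scro (scarecrow), an NK-2 type gene, had 37.9 ± 1.95 and 40.1 ± 2.97 CPM per kb, and toy (twin of eyeless), a Pax6 gene, had 37.0 ± 1.58 and 34.0 ± 0.04, and these overlapped. pdm3, exd, Dfd, Optix, ey and ct followed, with group means between 18.5 and 36.3 CPM per kb. At the other end, 12 genes (lab, en, ems, HGTX, exex, unpg, inv, nub, vnd, al, Antp and gsb-n) were under 2 CPM per kb in both groups.

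**Figure D1:**
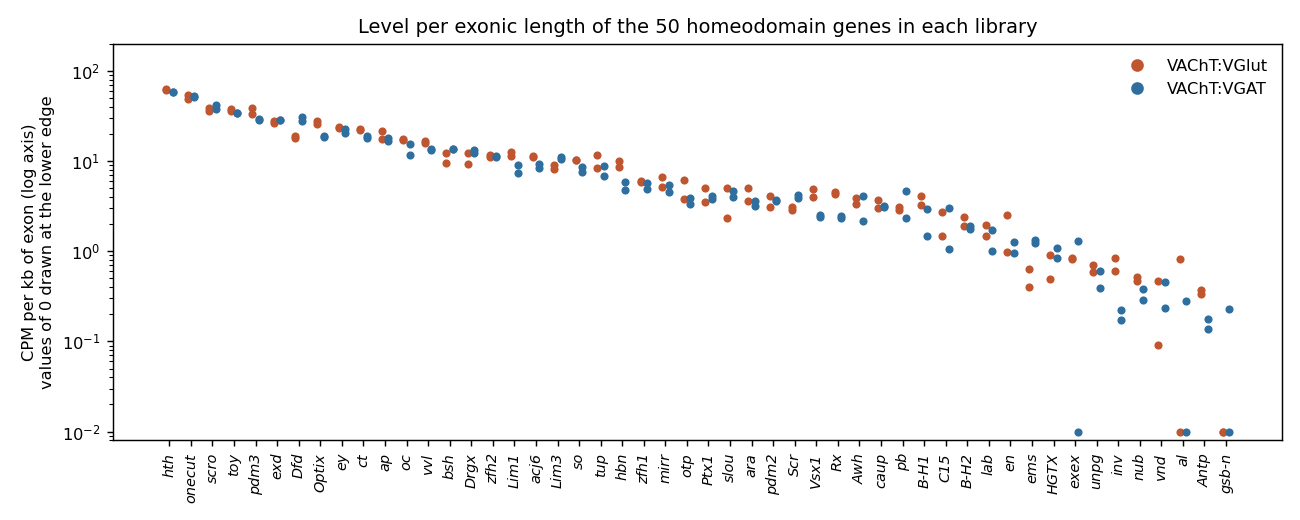
Level of each of the 50 homeodomain genes in CPM per kilobase of exon (log axis), with a point for each of the 4 libraries and genes ordered by the mean of the groups. hth and onecut lie above all others in every library, and the group means span from 62.8 CPM per kb for hth in VAChT:VGlut to gsb-n, which had a single count in all libraries together.

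The genotypes were compared with the quasi-likelihood test of edgeR over all 8246 genes that passed a filter on low counts, with fold changes taken as VAChT:VGlut over VAChT:VGAT and the threshold at a Benjamini-Hochberg adjusted p of 0.05. Of the 50 genes, 38 passed the filter and 12 did not. Of the 38, 5 passed the threshold (13.2%), against 11.8% of all genes tested, so the share of homeodomain genes called was close to the background. Optix, Lim1, pdm3 and ct rose in VAChT:VGlut (4 of 38, 10.5%, against a background of 6.22%), and Dfd fell (1 of 38, 2.63%, against 5.54%). At an unadjusted p under 0.05 the count was 13 of 38, or 34.2%, against 22.2% of all genes.

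Most fold changes were small and lay above 0. The median log2 fold change of the 38 genes was 0.21, against -0.01 over all genes tested, and 27 of 38 (71.1%) were above 0, against 48.9%. The libraries of the groups did not overlap for 23 of 38 genes (60.5%, against 49.3%), and 17 of these were higher in VAChT:VGlut (44.7% of 38, against 23.6%). These shares describe genes that passed the filter and were listed with earlier results known. Of the 38, Awh and B-H1 reached the filter's cutoff of 5.05 CPM in both libraries of VAChT:VGlut only. None did so in VAChT:VGAT only, and both genes are counted among the 27 above 0. B-H1 is also among the 17 without overlap and the 13 at an unadjusted edgeR p under 0.05. Without the filter, the median over all 50 was 0.24. The 8 neuron markers, all of which rose, had a median of 0.25, with a range from 0.12 to 0.41, and the part of this common shift in the values of the homeodomain genes was not tested.

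**Figure D2:**
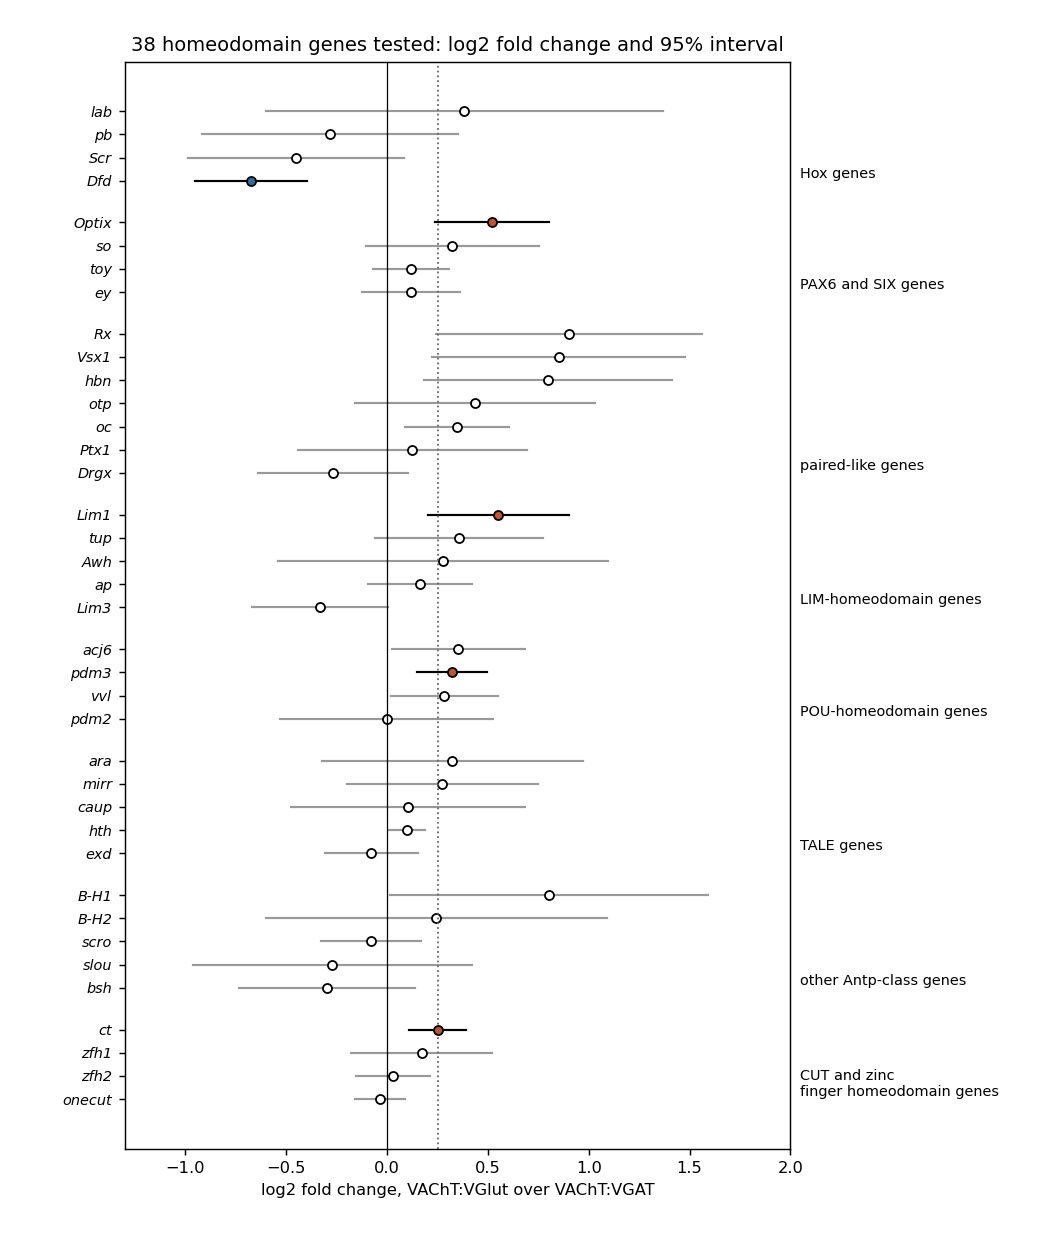
Log2 fold change (VAChT:VGlut over VAChT:VGAT) of the 38 homeodomain genes tested, by family, with bars for the 95% interval of edgeR. Filled points passed the threshold, and the dotted line marks the median of the 8 neuron markers, 0.25. Dfd is the only gene of the 38 that passed the threshold below 0.

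Precision followed the level. The 6 genes with a mean of at least 100 CPM (pdm3, toy, hth, ct, onecut and zfh2) had standard errors of 0.05 to 0.09 on the log2 scale, the 17 genes from 20 to 100 CPM had 0.12 to 0.24, and the 15 genes tested under 20 CPM had 0.26 to 0.49. Calls were made for 2, 3 and 0 genes of these groups, against 11.8% of all genes tested at any level. The share of all genes called within each level was not computed. For the last group a 95% interval reached 0.53 to 0.98 to either side of the estimate.

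Dfd (Deformed; FBgn0000439; dm6 chromosome 3R, 6791836 to 6802428, plus strand), the Hox gene of the mandibular and maxillary segments, fell most clearly. The VAChT:VGlut libraries held 105 and 124 counts of it and the VAChT:VGAT libraries 152 and 128, or 52.6 and 49.1 CPM against 77.5 and 84.9. Although the VAChT:VGAT libraries were the smaller ones, both lay above both of the other genotype. edgeR gave a log2 fold change of -0.67 (SE 0.14, 95% interval -0.95 to -0.40, adjusted p = 0.000216). It stayed past the threshold when any single library was left out (edgeR adjusted p from 0.000926 to 0.0233), although in such fits 1 library stands alone in its group and is assumed to vary like those of the other, and it missed the threshold with DESeq2 (adjusted p = 0.0552).

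Optix (FBgn0025360; chromosome 2R, 8031283 to 8042529, plus strand), a sine oculis family gene of the developing eye and of the optic lobe progenitors, rose in VAChT:VGlut. It had 145 and 196 counts in VAChT:VGlut and 102 and 80 in VAChT:VGAT, or 72.6 and 77.6 CPM against 52.0 and 53.1, with no overlap. edgeR gave a log2 fold change of 0.52 (SE 0.14, adjusted p = 0.0062). The call was lost without VAChT:VGlut replicate 2 (edgeR adjusted p = 0.117) and without VAChT:VGAT replicate 1 (0.0793), and with DESeq2 (0.266).

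Lim1 (FBgn0026411; chromosome X, 8756539 to 8805804, minus strand), a LIM-homeodomain gene of antenna, leg and brain development, also rose. It had 91 and 127 counts against 70 and 44, or 45.5 and 50.3 CPM against 35.7 and 29.2. The VAChT:VGlut libraries lay above both others, and the lower VAChT:VGAT library was replicate 2. edgeR gave a log2 fold change of 0.55 (SE 0.17, adjusted p = 0.0253), and it missed the threshold without VAChT:VGlut replicate 2 (0.229), without VAChT:VGAT replicate 2 (0.204) and with DESeq2 (0.485).

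pdm3 (FBgn0261588; chromosome 2R, 8327490 to 8396280, plus strand), a POU gene known for olfactory receptor choice and axon targeting, had 417 and 460 counts against 308 and 231, or 208.7 and 182 CPM against 157 and 153. The groups did not overlap, and VAChT:VGlut replicate 1 was the highest. By edgeR it differed by 0.32 on the log2 scale (SE 0.09, adjusted p = 0.00585), and the adjusted p was 0.188 without VAChT:VGlut replicate 1 and 0.232 with DESeq2. ct (cut; FBgn0004198; chromosome X, 7608428 to 7678859, plus strand), a CUT-homeodomain gene that sets external sensory organ identity and the complexity of dendrites, had 552 and 709 counts against 470 and 343, or 276 and 281 CPM against 239 and 228. Its groups were tight and separate, and the difference was the smallest of the 5. edgeR gave a log2 fold change of 0.25 (SE 0.07, adjusted p = 0.00951), and the adjusted p was 0.123 without VAChT:VGlut replicate 2, 0.106 without VAChT:VGAT replicate 2 and 0.283 with DESeq2.

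**Figure D3:**
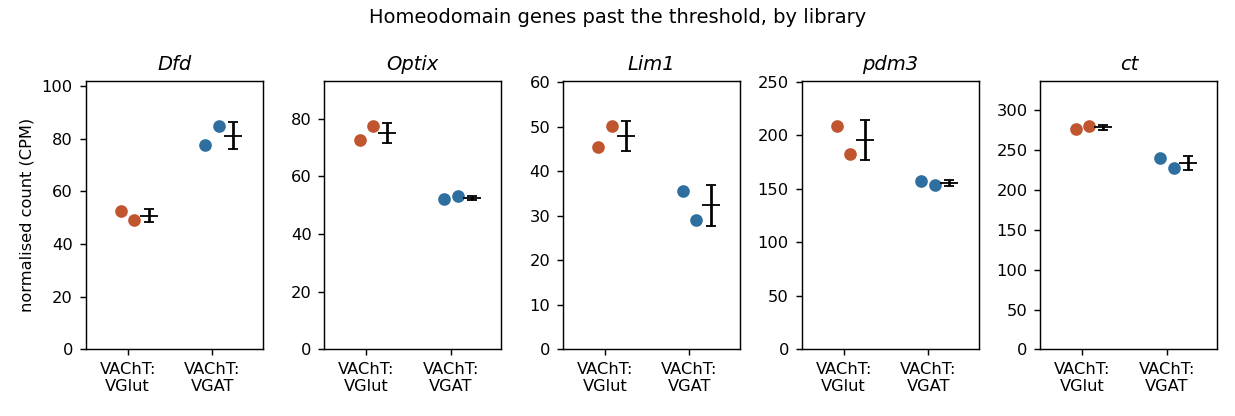
Normalised count (CPM) of the 5 homeodomain genes past the threshold, with a coloured point for each library and the mean with its SD (n = 2) in black, each panel with its own axis from 0. Dfd is higher in VAChT:VGAT (77.5 and 84.9 CPM against 52.6 and 49.1), and the other 4 are higher in VAChT:VGlut.

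All 5 calls depended on the test. DESeq2 called 0 of the 38 genes (3.86% of all genes), with 5 at an unadjusted p under 0.05 (9.88% of all genes), and these were the same 5 genes. The edgeR test against a 1.5-fold change called 0 of 38 (0.558% of all genes), with 0 at an unadjusted p under 0.05 (2.39% of all genes). At a fixed biological coefficient of variation of 0.1 in edgeR, Dfd alone was called (1 of 38, against 2.26% of all genes).

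The other Hox genes of the Antennapedia complex were less abundant than Dfd. Scr (Sex combs reduced), the gene of the labial and first thoracic segments, lies 20.7 kb from Dfd. It had 13.0 and 14.2 CPM in VAChT:VGlut and 19.4 and 17.9 in VAChT:VGAT, with no overlap, and by edgeR a log2 fold change of -0.45 (SE 0.27, 95% interval -0.99 to 0.09, adjusted p = 0.334). pb (proboscipedia), the gene of the adult mouthparts, had 11.5 and 10.7 CPM against 17.3 and 8.62. lab (labial), the most anterior Hox gene, had 4.504 and 5.94 CPM against 3.06 and 5.31. The libraries of pb and lab overlapped between the groups. Antp (Antennapedia), which specifies the second thoracic segment, had 5 and 7 counts against 2 and 2 and was not tested. Summed over the 5 Hox genes, the level was 84.1 and 82.7 CPM in VAChT:VGlut and 118.2 and 118.0 in VAChT:VGAT, and Dfd supplied most of it.

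Among the Pax6 and sine oculis family genes, Optix was the only 1 of 4 to pass the threshold, against 11.8% of all genes tested. ey (eyeless) and toy are the Pax6 genes of the fly, which start eye development and stay on in mushroom body neurons. ey had 89.1 and 85.9 CPM in VAChT:VGlut and 77.5 and 84.2 in VAChT:VGAT, and toy had 149.6 and 140.9 against 133.5 and 133.3. Both had a log2 fold change of 0.12 (SE 0.12 and 0.09, edgeR adjusted p = 0.637 and 0.511), and the upper ends of their 95% intervals were 0.36 and 0.31. The ratio of toy to ey counts was 1.68 and 1.64 in VAChT:VGlut and 1.72 and 1.58 in VAChT:VGAT, so it overlapped between the groups. so (sine oculis), the partner of eya in the eye, had 28.5 and 28.5 CPM against 24.0 and 21.2 (edgeR log2 fold change 0.32, SE 0.21, adjusted p = 0.40).

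Of the paired-like genes, 0 of the 7 tested passed the threshold with edgeR, with 4 at an unadjusted p under 0.05 (Rx, Vsx1, hbn and oc), against 22.2% of all genes. Rx, the counterpart of the vertebrate retinal homeobox gene Rax, had 30 and 36 counts in VAChT:VGlut and 15 and 12 in VAChT:VGAT (15.01 and 14.2 CPM against 7.65 and 7.96; edgeR log2 fold change 0.90, SE 0.33, adjusted p = 0.0632). Vsx1, which marks the central domain of the outer optic lobe progenitors, had 36 and 37 counts against 17 and 14 (edgeR log2 fold change 0.85, SE 0.31, adjusted p = 0.0648). hbn (homeobrain), expressed in the developing brain, had 36 and 39 counts against 17 and 16 (edgeR log2 fold change 0.80, SE 0.31, adjusted p = 0.0802). None of these 3 overlapped between the groups, as was the case for 49.3% of all genes tested, and each rested on under 40 counts a library. hbn, Rx and otp (orthopedia) are neighbours on chromosome 2R, with gaps of 17.6 and 13.3 kb. otp had 42 and 32 counts against 22 and 20, and its CPM values overlapped.

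oc (ocelliless, or orthodenticle), a head gap gene that also controls rhodopsin genes in photoreceptors, was the most abundant paired-like gene. It had 87.6 and 88.6 CPM in VAChT:VGlut and 77.5 and 59.0 in VAChT:VGAT (edgeR log2 fold change 0.35, SE 0.13, adjusted p = 0.0691), and the VAChT:VGAT libraries lay farther from each other than the nearer did from the other group. It passed the threshold with the replicate number as a block (edgeR adjusted p = 0.0423) but missed it with DESeq2 (0.638). It also missed it in edgeR at the fixed coefficient of variation (0.484) and with a trend on exonic length removed (0.208). The log2 fold change of oc was 0.58 without VAChT:VGAT replicate 1 and 0.19 without VAChT:VGAT replicate 2. Drgx, the counterpart of a vertebrate sensory neuron gene, lay in the opposite direction, with 37.0 and 27.7 CPM against 37.2 and 39.8 (edgeR log2 fold change -0.27, SE 0.19, adjusted p = 0.44). Ptx1, a Pitx gene, had 12.5 and 17.8 CPM against 13.8 and 14.6. al (aristaless) and gsb-n (gooseberry-neuro) had 4 counts and 1 count over all libraries, and 3 counts in a library, the limit that a count of 0 allows, correspond to 1.19 to 1.99 CPM.

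The LIM-homeodomain genes combine LIM domains, which bind the cofactor Chi, with the homeodomain. Of 5 tested only Lim1 passed, against 11.8% of all genes tested. Lim3, a motor neuron identity gene, had 35.5 and 38.4 CPM in VAChT:VGlut and 47.4 and 45.8 in VAChT:VGAT, without overlap and with the sign opposite to Lim1 (edgeR log2 fold change -0.33, SE 0.17, 95% interval -0.67 to 0.01, adjusted p = 0.235). tup (tailup), the Islet gene of motor and aminergic neurons, had 38.5 and 27.7 CPM against 22.4 and 29.2. ap (apterous), known from the dorsal wing and from peptidergic neurons, was the most abundant of the class with 94.1 and 75.97 CPM against 78.0 and 71.6 (edgeR log2 fold change 0.16, SE 0.13, adjusted p = 0.51). Awh (Arrowhead) had 7.01 and 8.31 CPM against 4.59 and 8.62. The values of tup, ap and Awh overlapped between the groups, and the difference between Lim1 and Lim3 was not tested.

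Among the POU genes, pdm3 passed the threshold, as did 11.8% of all genes tested, and the 3 others tested did not. acj6 (abnormal chemosensory jump 6), which sets odorant receptor choice and supports the cholinergic gene locus, had 49.5 and 50.7 CPM in VAChT:VGlut and 37.7 and 41.1 in VAChT:VGAT (edgeR log2 fold change 0.35, SE 0.16, adjusted p = 0.179). vvl (ventral veins lacking), used in projection neuron wiring and in the trachea, had 81.1 and 75.97 CPM against 63.7 and 65.0 (edgeR log2 fold change 0.28, SE 0.13, adjusted p = 0.18). Neither overlapped between the groups. nub and pdm2 are neighbours 29.0 kb apart with overlapping roles in neuroblast timing. pdm2 had 14.5 and 19.0 CPM against 17.3 and 16.6 (log2 fold change 0.00, SE 0.26, 95% interval -0.53 to 0.53), whereas nub had 5 and 7 counts against 3 and 3 and was not tested. In each library pdm2 had 5.8 to 11.3 times the counts of nub.

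The TALE genes, whose homeodomain carries an extra 3-residue loop, included the most abundant member and 0 of 5 genes past the threshold with edgeR, with hth alone at an unadjusted p under 0.05, against 22.2% of all genes. hth had 730.2 and 756 CPM in VAChT:VGlut and 693 and 696 in VAChT:VGAT, without overlap (edgeR log2 fold change 0.10, SE 0.05, 95% interval 0.01 to 0.19, adjusted p = 0.162). After the trend on exonic length was removed the sign of hth was reversed, at -0.07. exd (extradenticle), its partner, had 92.1 and 87.1 CPM against 93.8 and 94.8 (edgeR log2 fold change -0.08, SE 0.12, adjusted p = 0.772). The Iroquois genes ara, caup and mirr, which pattern the dorsal eye and sensory bristles, lie in a row on chromosome 3L with gaps of 13.6 and 71.8 kb. ara had 15.01 and 10.7 CPM against 10.7 and 9.28, caup had 13.0 and 15.8 against 13.8 and 13.3, and mirr had 20.02 and 26.1 against 17.8 and 21.2. All 3 overlapped between the groups, and per kilobase mirr was the highest of them.

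The 13 other Antennapedia-class genes include NK, Bar and engrailed genes, and only 5 of them passed the filter. scro was the most abundant, with 82.6 and 76.8 CPM in VAChT:VGlut and 80.02 and 88.9 in VAChT:VGAT (edgeR log2 fold change -0.08, SE 0.12, adjusted p = 0.779). bsh (brain-specific homeobox), which specifies lamina and medulla neurons, had 19.0 and 24.9 CPM against 27.5 and 27.2, without overlap (edgeR log2 fold change -0.30, SE 0.22, adjusted p = 0.469). slou, a muscle identity gene, had 13.5 and 6.33 CPM against 10.7 and 12.6. B-H1 and B-H2, the Bar genes of outer photoreceptors and sensory organs, lie 73.3 kb apart on the X chromosome. B-H1 had 18 and 28 counts against 8 and 12 (edgeR log2 fold change 0.80, SE 0.39, adjusted p = 0.212), and it reached the filter's cutoff of 5.05 CPM in both libraries of VAChT:VGlut only. B-H2 had 12 and 19 counts against 11 and 9 (edgeR log2 fold change 0.24, SE 0.42, adjusted p = 0.812). The interval of B-H2, from -0.60 to 1.09, contains the estimate of B-H1.

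The remaining 8 of this class were near the floor. en (engrailed) and inv (invected), neighbours 14.3 kb apart that mark posterior compartments, had 14 and 7 counts against 7 and 4, and 10 and 9 against 2 and 2. Without a filter the edgeR adjusted p was 0.745 for en and 0.156 for inv. The head gap gene ems had 2 and 4 counts against 6 and 5, and C15, a leg tip gene, had 10 and 7 against 11 and 3. HGTX, a motor neuron gene of the Nkx6 family, had 3 and 7 counts against 5 and 5, and exex, the fly HB9 gene, had 4 and 5 against 6 and 0. unpg had 2 and 3 against 2 and 1, and vnd, the gene of ventral neuroblasts, had 4 and 1 against 2 and 3. None of the 8 passed the threshold in the fit without a filter.

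Of the CUT and zinc finger homeodomain genes, ct passed the threshold, as did 11.8% of all genes tested, and the 3 others did not. onecut had 362.8 and 330.4 CPM in VAChT:VGlut and 348 and 361 in VAChT:VGAT, so the groups overlapped (edgeR log2 fold change -0.04, SE 0.06, 95% interval -0.16 to 0.09, adjusted p = 0.815). zfh2, a zinc finger homeodomain gene of interneurons and of the wing hinge, had 147 and 139.7 CPM against 140.7 and 139.3 (edgeR log2 fold change 0.03, SE 0.09, 95% interval -0.15 to 0.22, adjusted p = 0.899). Its sign changed with library size alone as the scaling. zfh1, known from motor neurons and mesoderm, had 41.0 and 41.5 CPM against 34.2 and 39.8 (edgeR log2 fold change 0.17, SE 0.17, adjusted p = 0.625). onecut, zfh2, ey and toy are the 4 members on chromosome 4, and their log2 fold changes ran from -0.04 to 0.12, while the median over the 83 genes tested there was 0.03.

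Exonic length moved with the fold changes of all genes. In 4 equal groups by length, from the shortest to the longest, the median log2 fold change over all genes was -0.14, -0.07, 0.02 and 0.10. The homeodomain genes tested were long, with a median of 3676.5 bases against 2319 over all genes tested. The 8 neuron markers were long as well, from 4072 bases (nSyb) to 16309 (para), and all lay in the longest group. Of the 38, 0 lay in the shortest group, 4 in the second, 19 in the third (median log2 fold change 0.27, with Optix and Dfd) and 15 in the longest (median 0.16, with ct, pdm3 and Lim1). Of all genes tested, 8.69% in the third group and 19.3% in the longest passed the threshold. With the trend on length removed, the median of the 38 was 0.11, and 2 genes, Dfd and Optix, were past the threshold (7.6% of all genes were). The log2 fold changes were then -0.66 for Dfd (edgeR adjusted p = 0.00047) and 0.53 for Optix (0.00702). pdm3 (0.25, edgeR adjusted p = 0.0624) and Lim1 (0.52, 0.0543) missed the threshold, and ct was at 0.08 (0.622).

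**Figure D4:**
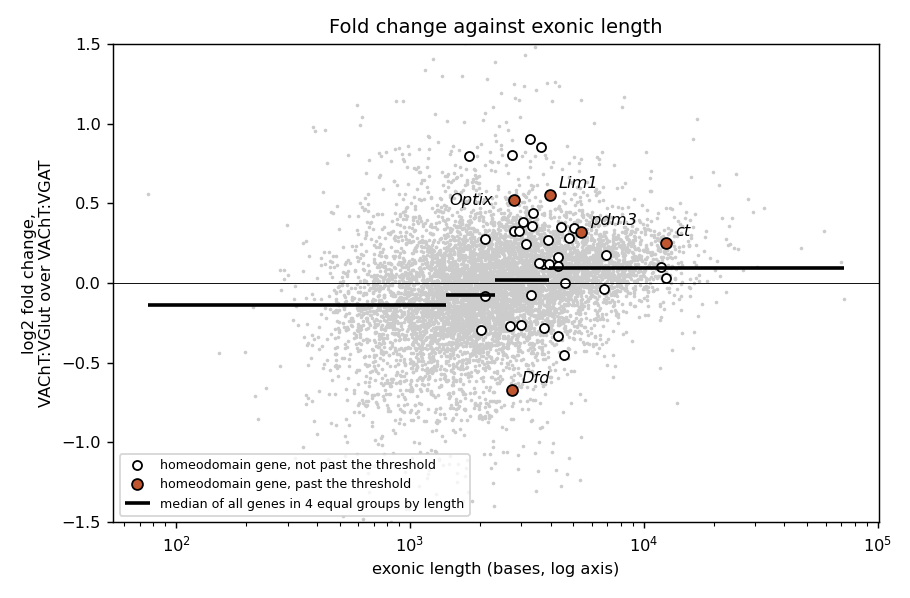
Log2 fold change (VAChT:VGlut over VAChT:VGAT) against exonic length in bases (log axis) for all genes tested (grey) and the 38 homeodomain genes tested (circles, filled where past the threshold). Genes beyond the limits of the vertical axis are not drawn. Black lines give the median of all genes in 4 equal groups by length, from -0.14 to 0.10. The genes ct, pdm3 and Lim1 lie in the longest of the 4 groups, where 19.3% of all genes passed the threshold.

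Counts were also set against those of the 8 neuron markers in the same library, a measure chosen after the values were seen. Per 1000 counts of these markers, all 50 homeodomain genes together had 212 and 201 counts in VAChT:VGlut and 231 and 231 in VAChT:VGAT, so on this measure the order of the groups was opposite to that in shares of the library. Dfd had 3.64 and 3.32 against 6.44 and 7.05 counts, and hth had 50.5 and 51.2 against 57.6 and 57.8, both without overlap. Optix had 5.02 and 5.25 against 4.32 and 4.40 counts, and Lim1 had 3.15 and 3.40 against 2.96 and 2.42, also without overlap. For pdm3 (14.4 and 12.3 against 13.0 and 12.7) and ct (19.1 and 19.0 against 19.9 and 18.9) the groups overlapped. The summed markers were higher in both VAChT:VGlut libraries, so this measure lowers every gene there relative to VAChT:VGAT. Dfd, already lower in VAChT:VGlut in CPM, could therefore not lose its order on it. Optix and Lim1 kept their order, and the separation of pdm3 and ct was not seen on this measure. The order of hth, higher in VAChT:VGlut in CPM, was reversed. The share of all genes that stay separate on this measure was not computed, so the measure gives no test of the calls.

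Further homeobox genes and cofactors of homeodomain proteins were read for comparison. Of 46 further homeobox genes, 16 were tested and 4 rose in VAChT:VGlut, among them pros, CG32532 and toe, with 0 lower, against 6.22% higher and 5.54% lower of all genes tested, and a median log2 fold change of 0.34. toe (twin of eyegone), a PAX gene, had 31 and 39 counts against 15 and 12 (edgeR log2 fold change 0.99, SE 0.33, adjusted p = 0.0344). CG32532 had 52 and 55 against 20 and 25 (0.86, SE 0.26, edgeR adjusted p = 0.0196). Both were separate between the groups, and neither passed the threshold with DESeq2. With limma-voom toe missed the threshold as well. pros (prospero), the divergent homeodomain gene of neural differentiation, had 2946 and 1835 CPM in the means of VAChT:VGlut and VAChT:VGAT (log2 fold change 0.69, SE 0.03), the highest level on this list.

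The posterior Hox genes on this list were scarce. Ubx had 5 and 2 counts against 3 and 0, abd-A had 1 count over all libraries and Abd-B had 2. Of the further homeobox genes, 6 had no count in any library (zen2, prd, gsb, CG15696, CG34031 and btn). All 9 cofactor genes were tested and 1 rose, against 6.22% of all genes. Ssdp, which binds Chi in LIM-homeodomain complexes, had 433 and 612 counts against 379 and 285 (edgeR log2 fold change 0.27, SE 0.08, adjusted p = 0.0126), whereas Chi itself had a log2 fold change of -0.21 (SE 0.15, edgeR adjusted p = 0.431). Ssdp missed the threshold with DESeq2 and with the trend on length removed. eya, the partner of so, was at 0.00 (SE 0.15), and the corepressor gro at 0.04 (SE 0.09). dac (0.31, SE 0.14) and tio (0.55, SE 0.22) missed the threshold, with edgeR adjusted p-values of 0.142 and 0.0919.

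Marker genes of several cell types moved between the genotypes as well. Of the neuron markers 8 of 8 rose in VAChT:VGlut, and of the photoreceptor markers 8 of 15 rose and 2 fell (median log2 fold change 0.23). Of the muscle markers 5 of 6 tested rose (median 0.48), while 4 of 10 glial markers (median -0.19) and 5 of 6 fat body markers tested (median -0.30) fell. Over all genes tested, 6.22% rose and 5.54% fell. Among the photoreceptor markers, the homeobox gene Pph13, also on the list of further homeobox genes, had a log2 fold change of 0.34 (SE 0.24, edgeR adjusted p = 0.459). The part of these cell types in the values of the homeodomain genes was not tested.

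**Figure D5:**
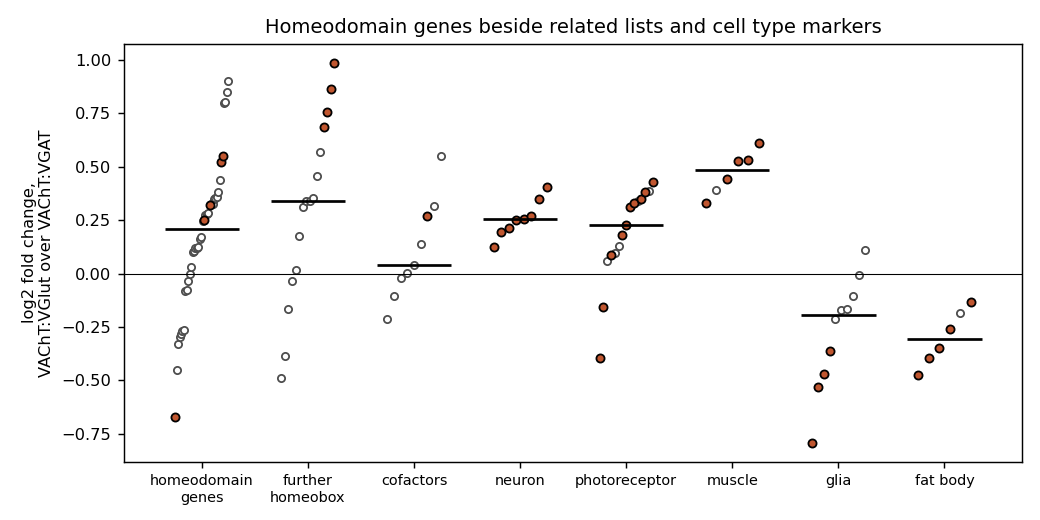
Log2 fold change (VAChT:VGlut over VAChT:VGAT) of each gene tested among the homeodomain genes, further homeobox genes, cofactors and cell type markers, with filled points past the threshold and a line at each median. The homeodomain genes spread from -0.67 (Dfd) to 0.90 (Rx) around a median of 0.21, and the neuron markers lie between 0.12 and 0.41.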

How the data were processed

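Raw counts for 4 libraries were deposited by the authors in a single table. Per the file headers, the counts are read pairs on the reverse strand over exons of the dm6 refGene annotation, made with featureCounts 1.5.1. The submitters' processing notes also name fastp, STAR and DESeq2; settings and any removal of amplification duplicates are not given in the sources used here. The deposited table also gives the exonic length of each gene. All 50 genes matched a FlyBase identifier, none shared exon bases with another gene on its strand, and all spans overlapped the Ensembl BDGP6 annotation of the same assembly. No genome sequence was used here.

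Counts were tested with edgeR 4.0.16 in R 4.3.3 (glmQLFit and glmQLFTest), with TMM scaling, filterByExpr (minimum count 10, minimum total 15) and genotype as the only term, on all 4 libraries, with p-values adjusted over all 8246 genes tested. A standard error is the absolute log2 fold change over the root of the F statistic. CPM are counts per 1000000 of the TMM-scaled library total. Fits were tested on simulated data. Alternatives were DESeq2 1.42.0 without independent filtering, limma-voom (limma 3.58.1), other scalings and filters, a test against a 1.5-fold change, a likelihood ratio test with a fixed coefficient of variation, removal of a loess trend on length, a replicate block, and leaving out each library.

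Replicates differed by more than counting noise (chi-square over degrees of freedom 1.22 in VAChT:VGlut and 1.19 in VAChT:VGAT) and were kept separate. The common biological coefficient of variation that edgeR estimated was 2.18%, whereas the alternative with a fixed coefficient set it higher, at 0.1 as a fraction. Libraries held 1490390 to 2556988 counts, and floors cover counting error only. The genes and lists were chosen with earlier results of these data known. The genes named with full statistics were those past the threshold, the most abundant and the smallest p-value of each family, and close pairs, while every other gene was accounted for by family. Values given for Vsx1, hbn, Drgx and other genes outside that rule were chosen after they were seen. svb and yellow, on a list of cuticle and epidermis markers, were not found by symbol. Of the 5 genes tested on that list, 2 rose in VAChT:VGlut and 1 fell, against 6.22% and 5.54% of all genes tested. The values of 1 gene on the list of further homeobox genes are not reported here.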

Additional observations from a re-analysis of the deposited data

How the results depend on the processing

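Directions of the 5 homeodomain genes past the threshold held under all 14 alternatives. Their number was 5 with the size factors of DESeq2, library size alone, no filter, limma-voom and a mean of 50 counts or more. In the same order, 987, 975, 967, 960 and 953 of all genes passed. The number of homeodomain genes was 0 with DESeq2 and with a test against a 1.5-fold change. It was 1 at a fixed biological variation (coefficient 0.1) and 2 with the length trend removed. Leaving out any 1 library lost at least 1 of these 5 genes, and in such fits 1 library stands alone in its group. The number of all genes past the threshold, 970, was 318 with DESeq2, 46 against a 1.5-fold change, 186 at the fixed variation, 627 with the length trend removed and 513 to 738 with 1 library left out. With library size alone, 401 genes were higher and 574 lower in VAChT:VGlut, against 513 and 457. The count of further homeobox genes and cofactors, 5, was 2 at a mean of 50 counts, 1 with DESeq2, against a 1.5-fold change and at the fixed variation, and 1 to 3 with 1 library left out. The median of the homeodomain genes tested was 0.2086, 0.1444 at a mean of 50 counts (where 21 genes remained), 0.1120 with the length trend removed and 0.1574 to 0.2183 with 1 library left out. The cause of the lower counts was not tested. Fewer genes or libraries entered the fits where these were left out.

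With the replicate block, 1049 of all genes and 6 homeodomain genes passed, oc being added, and no other call on these genes changed. Same-numbered libraries did not deviate together (correlation -0.03), and the labels do not say that a number marks a shared batch.

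Signs changed only for genes that had missed the threshold: pdm2 (0.0054 with the size factors of DESeq2, 0.0104 with no filter), zfh2 (-0.0043 with library size alone, -0.1413 with the length trend removed) and hth (-0.0665 with the length trend removed). With 1 library left out, the ranges that crossed 0 were -0.0033 to 0.7809 for lab, -0.6454 to 0.356 for pb, -0.1575 to 0.7451 for Awh, -0.2242 to 0.1626 for pdm2, -0.0544 to 0.2272 for caup, -0.1716 to 0.3358 for Ptx1, -0.8576 to 0.2289 for slou, -0.0956 to 0.0392 for onecut and -0.0007 to 0.074 for zfh2. Depth limits the 12 genes that were not tested and the 15 tested under 20 CPM.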
